A study of Mus musculus with 33 samples.

Results

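The interferon gamma pathway genes described here are the ligand Ifng, the receptor chains Ifngr1 and Ifngr2, the kinase Jak1, the transcription factor Irf1 and the feedback inhibitors Socs1 and Socs3. They were chosen by gene name from the authors' tables and make up 7 of the 53735 gene names those tables list. RNA was sequenced from 3 cell populations sorted from orthotopic tumours of KCKO, a mouse pancreatic ductal adenocarcinoma cell line, in C57BL/6 mice. Each mouse had received 100000 KCKO cells in the tail of the pancreas, and titanium markers beside the tumour guided the radiation. One population, called IM, was labelled as inflammatory monocytes and sorted as CD45+CD11b+Ly6C+Ly6G-. A second, TAM, held tumour-associated macrophages gated as CD45+CD11b+Ly6CmodLy6G-F480+, and the last, CD8, held T cells gated as CD45+CD8+.

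The groups in each population were stereotactic body radiotherapy (SBRT, 4 fractions of 6 Gy on days 6 to 9 after implantation), an injection into the tumour of microspheres carrying 0.5 ug of recombinant IL-12 (IL-12, day 10), both together (combination), and unirradiated tumours. Empty microspheres were the protocol's control, and the labels do not say which groups received them. IM and CD8 had 3 libraries in each group. TAM had 3 after IL-12, and 2 each after SBRT, after the combination and in unirradiated tumours. The labels do not say that the 33 libraries came from separate mice, so the p-values below measure the spread between these libraries, which may be technical. The authors deposited 9 tables, each comparing one treatment with unirradiated tumours in one population, with no value per library. The depth of each library and the level of a gene in it are therefore unknown here. With each population's summed level set to 1000000, 8 T cell markers summed to 5709 in CD8, 37.4 in IM and 34.4 in TAM. The 5 monocyte markers summed to 3925 in IM and 679 in CD8, and to between 777 and 905 over the TAM groups. The 7 macrophage markers summed to 22695 in TAM, 19084 in IM and 278 in CD8, so they were high in IM as well as in TAM. None of these markers was at 0 in any population.

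Interferon gamma is made mainly by T cells and natural killer (NK) cells, and IL-12 is among the cytokines that drive its production. It binds IFNGR1, the chain that holds the ligand, which pairs with IFNGR2, the chain that completes the signalling complex. The receptor-bound kinases JAK1 and JAK2 then pass the signal to the nucleus, where GAS elements in promoters respond to it. Irf1 is among the first genes to be induced and encodes a transcription factor that binds interferon-stimulated response elements (ISRE) and extends the response. Socs1 and Socs3 are induced by cytokine signalling and inhibit JAK kinases, so they act as feedback on it. In macrophages interferon gamma is known for raising antigen presentation and microbicidal enzymes.

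Averaged over all their libraries, the populations held these genes at different levels. Levels are the authors' mean normalised level over all libraries of a population, scaled to a population sum of 1000000 and, here, per kilobase of exon so that genes can be compared. The populations were normalised separately, and no spread over libraries can be given for these means, so the order of neighbouring genes was not tested. Ifng stood at 180.3 in CD8, against 3.47 in IM and 2.18 in TAM. Ifngr1 stood at 191 in CD8, 80.1 in IM and 61.4 in TAM. Ifngr2 ran the other way, at 3.24 in CD8, 41.0 in IM and 43.4 in TAM. The ratio of Ifngr1 to Ifngr2 per kilobase was thus 58.9 in CD8, 1.95 in IM and 1.42 in TAM. Jak1 stood at 97.8 in CD8, 35.6 in IM and 26.7 in TAM.

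The transcription factor and feedback genes were higher in the myeloid populations. Irf1 stood at 551 in IM, 441 in TAM and 150.2 in CD8 per kilobase, and its level ranked 40 among all genes in IM and 56 in TAM before scaling to length. Socs3 stood at 567 in IM, 501 in TAM and 80.6 in CD8. Socs1 was lower than Socs3 in every population, at 47.2 in IM, 62.2 in TAM and 30.9 in CD8. In order per kilobase, Socs3 and Irf1 led in IM and TAM with Ifng last, whereas Ifngr1 and Ifng led in CD8 with Ifngr2 last. Genes known to rise during tissue dissociation were also high in the myeloid cells, 12 of them summing to 54964 (not per kilobase) in IM and 44013 in TAM, against 10864 in CD8. Several of these, such as Fos, Jun and Egr1, are immediate early genes, and their part in the levels of Irf1 and Socs3 was not tested.

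**Figure D1:**
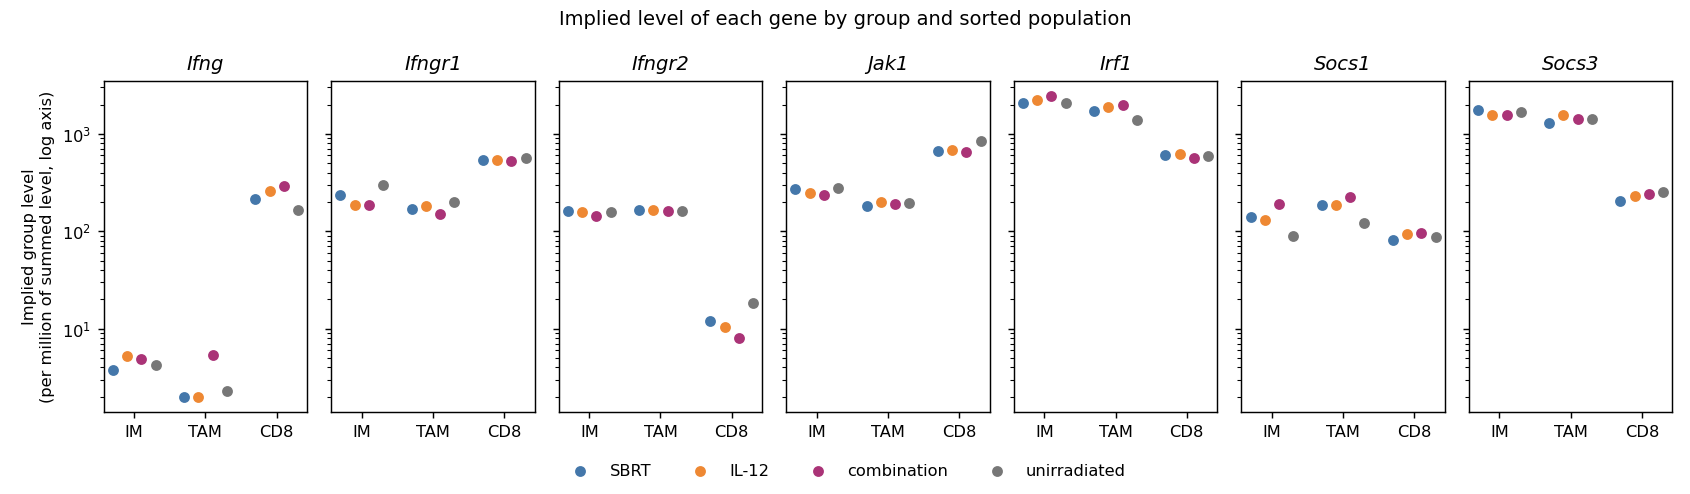
Implied level of each gene (scaled to a population sum of 1000000, log axis) after SBRT, IL-12, the combination and in unirradiated tumours, in IM, TAM and CD8. Each point is a group level worked out from the authors' mean level and fold changes, so there is no error bar; Ifng sits between 1.98 and 5.39 in the myeloid populations and between 167 and 290.2 in CD8, while Ifngr2 lies lowest in CD8.

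A gene was called where the authors' adjusted p was below 0.05, and its direction was taken from the sign of their Wald statistic. Of the 63 values for the 7 genes in the 9 comparisons, 12 were called, 8 higher and 4 lower than in unirradiated tumours. In IM, 1 of the 7 genes was called after SBRT, where 0.519% of all genes tested were called. In IM after IL-12 it was 2 of 7 beside 3.24% of all genes, and after the combination 2 of 7 beside 6.72%. In TAM, 1 of 7 was called after SBRT beside 2.08% of all genes, 1 after IL-12 beside 0.935%, and 2 after the combination beside 4.21%. In CD8, 0 of 7 were called after SBRT beside 0.471% of all genes, 1 after IL-12 beside 2.52%, and 2 after the combination beside 7.47%. The authors' adjusted p missed the threshold for all 7 genes in CD8 after SBRT; 2 of them, Ifngr2 and Jak1, had an unadjusted p below 0.05 there, of 0.0153 and 0.0248. The calls fell on Socs1, Ifng, Ifngr1 and Ifngr2, while Jak1, Irf1 and Socs3 had none. The median log2 fold change of the 7 genes lay between -0.12 (TAM, SBRT) and 0.02 (TAM, IL-12), beside medians of -0.03 to 0.00 over all genes tested. The tables of one population share their unirradiated libraries, which ties its 3 comparisons to each other.

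**Figure D2:**
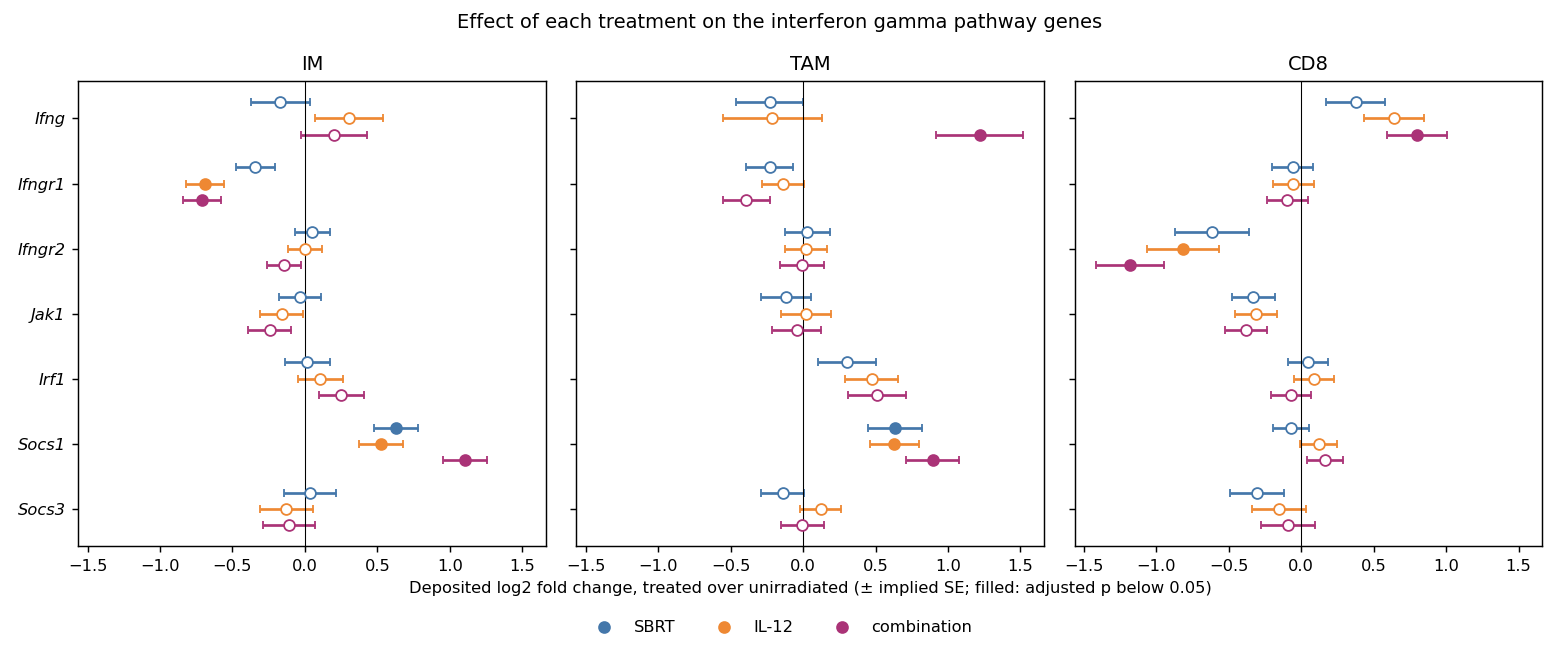
Log2 fold change of each gene after SBRT, IL-12 and the combination over unirradiated tumours, in the authors' deposited tables, for IM, TAM and CD8. Points are the deposited values and bars the implied standard error, taken as the fold change divided by the Wald statistic. Filled points have an adjusted p below 0.05, which holds for Socs1 in all 6 myeloid comparisons and in none of the CD8 comparisons.

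Ifng, the ligand, lies on chr10:118441046-118445892 (GRCm38, plus strand). It was called higher after the combination in TAM and in CD8, and its other 7 values did not pass. The group levels below were implied by the authors' mean level and fold changes, scaled to a population sum of 1000000 and not per kilobase, and they carry no SD. In TAM, Ifng stood at 1.98 after SBRT, 2.00 after IL-12 and 5.39 after the combination, against 2.32 in unirradiated tumours. The combination group alone was high, and both single treatments lay slightly below the unirradiated level. In the authors' deposited table the log2 fold change after the combination in TAM was 1.22 ± 0.30 (implied SE, 2 libraries against 2), with an adjusted p of 0.00307. After SBRT and IL-12 the authors' deposited tables gave -0.23 ± 0.23 and -0.21 ± 0.34 in TAM, with adjusted p of 0.921 and 0.999.

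In CD8 the Ifng level was 217 after SBRT, 260.4 after IL-12 and 290.2 after the combination, against 167 in unirradiated tumours. All 3 treated groups were above the unirradiated one. The authors' deposited table gave a log2 fold change of 0.80 ± 0.21 after the combination, a fold of 1.74, with an adjusted p of 0.00384. After IL-12 the deposited table gave 0.64 ± 0.21 with an adjusted p of 0.0600, and after SBRT 0.38 ± 0.20 with 0.496. The call after the combination was lost, at an adjusted p of 0.197, when the table's Wald statistics were rescaled to their own robust spread; over the alternatives run it lay between 0.00360 and 0.197. In IM, Ifng stood at 3.73 after SBRT, 5.19 after IL-12 and 4.83 after the combination, against 4.20 in unirradiated tumours. None of the 3 IM values passed, with log2 fold changes of -0.17, 0.31 and 0.20 in the authors' deposited tables.

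Markers of lymphocytes stand beside these Ifng values. In TAM the summed level of 8 T cell markers was 0.602% of that in CD8, and the Ifng level was 1.21% of that in CD8. The T cell markers summed to 30.0 after SBRT, 29.2 after IL-12 and 41.6 after the combination, against 39.3 in unirradiated TAM, with no marker at 0. After the combination none of the 8 passed in TAM, with or without adjustment, and their median log2 fold change in the authors' deposited table was 0.15, between -0.14 and 0.33. That range lies below the Ifng value of 1.22. The 7 NK cell markers summed to 4.95 to 6.45 over the TAM groups. Only 3 of them, Eomes, Gzma and Prf1, were tested in TAM after the combination, with none called. In IM the NK markers summed to 64.2, which was 6.18% of their CD8 level, beside 1.92% for Ifng. In CD8 they summed to 901 after SBRT, 1156 after IL-12 and 1262 after the combination, against 837 in unirradiated tumours. In bulk RNA, more interferon-producing cells and more Ifng RNA per cell cannot be told apart. In CD8 after the combination, 2 genes of the NK list that cytotoxic T cells also express were called higher in the authors' deposited table, Gzma at 1.07 (adjusted p = 5.39e-05) and Prf1 at 0.60 (adjusted p = 0.0191). The part of these cells in the Ifng values was not tested.

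**Figure D3:**
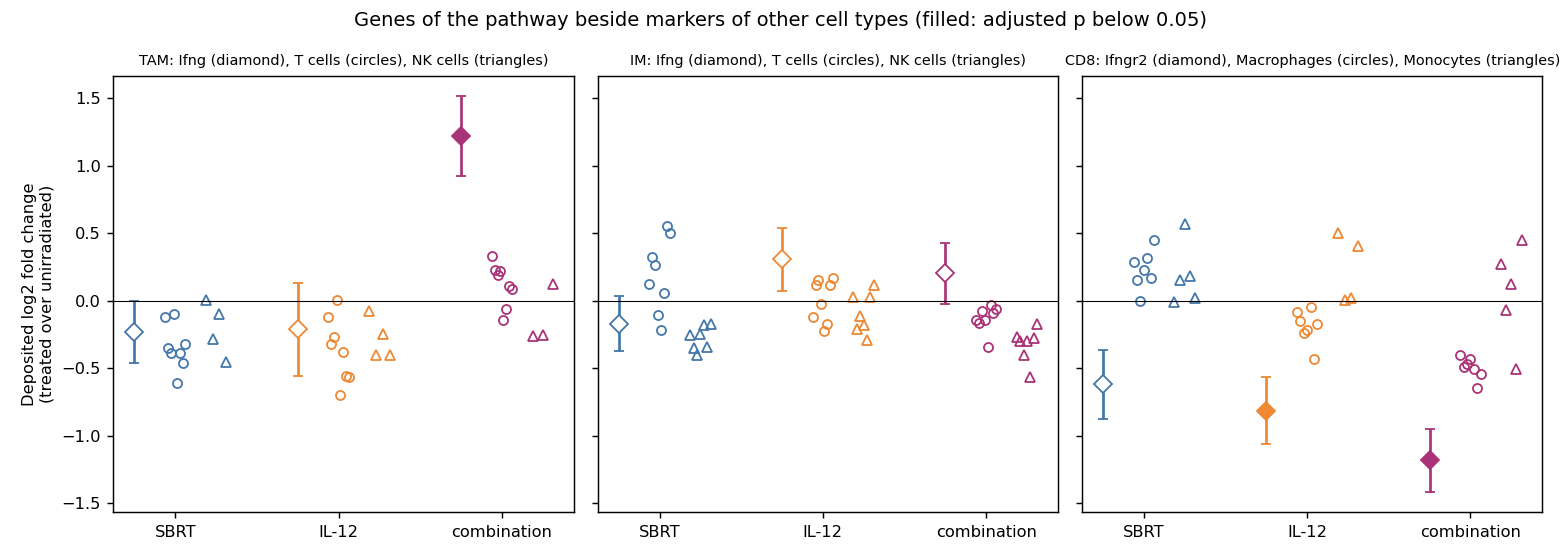
Log2 fold change over unirradiated tumours, in the authors' deposited tables, of Ifng in TAM and IM and of Ifngr2 in CD8 (diamonds with implied SE, filled where the adjusted p is below 0.05) beside single marker genes of other cell types that were tested. After the combination the T cell markers in TAM lie between -0.14 and 0.33, below Ifng at 1.22, and the macrophage markers in CD8 between -0.65 and -0.40, above Ifngr2 at -1.18.

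Ifngr1, the ligand-binding chain, lies on chr10:19591949-19610229 (plus strand). It fell in IM, where its level was 238 after SBRT, 187 after IL-12 and 185 after the combination, against 302 in unirradiated tumours. All 3 treated groups were below the unirradiated one, the groups with IL-12 furthest. The authors' deposited tables gave IM log2 fold changes of -0.69 ± 0.13 after IL-12 (adjusted p = 3.18e-05) and -0.71 ± 0.13 after the combination (adjusted p = 7.66e-06). After SBRT alone the deposited value was -0.34 ± 0.13, with an adjusted p of 0.391. In TAM the level was 169 after SBRT, 179.8 after IL-12 and 151 after the combination, against 198 in unirradiated tumours, and none passed; the deposited table gave -0.39 ± 0.16 and an adjusted p of 0.179 after the combination. In CD8, where Ifngr1 was highest, the 3 deposited log2 fold changes lay between -0.10 and -0.05, and their 95% intervals stayed between -0.38 and 0.23. Monocyte markers moved in the same IM comparisons. After the combination 3 of the 5, Ccr2, Vcan and F13a1, were called lower and 2, Ly6c2 and Plac8, higher in the authors' deposited table, and their part in the Ifngr1 result was not tested. RNA integrity was recorded only as above 5 for every group. The 13 mitochondrially encoded genes, often read as a sign of RNA quality, were negative throughout in IM, with medians of -0.29 after SBRT, -0.27 after IL-12 and -0.32 after the combination in the deposited tables. Of them 1 was called, mt-Nd4l, lower after the combination (-0.53, adjusted p = 0.0457). They summed to 9169, 9434 and 9244 after these treatments, against 11174 in unirradiated IM, and their part in the IM values of Ifngr1 and Socs1 was not tested.

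Ifngr2, the accessory chain, lies on chr16:91547072-91565623 (plus strand). It fell in CD8, the population where it was already lowest. Its level there was 12.0 after SBRT, 10.4 after IL-12 and 8.10 after the combination, against 18.4 in unirradiated tumours. Every treated group was below the unirradiated one, the combination furthest. The authors' deposited tables gave CD8 log2 fold changes of -0.81 ± 0.25 after IL-12 (adjusted p = 0.0442) and -1.18 ± 0.24 after the combination (adjusted p = 4.79e-05), the last being 44.1% of the unirradiated level. After SBRT the deposited value was -0.62 ± 0.25 with an adjusted p of 0.315. The IL-12 call was lost at an adjusted p of 0.0974 when every gene with a p-value entered the adjustment, and at 0.491 with rescaled Wald statistics, within a range of 0.0442 to 0.491 over the alternatives. In IM and TAM the 6 deposited log2 fold changes of Ifngr2 lay between -0.14 and 0.05, with adjusted p of 0.632 or more and 95% intervals within -0.38 to 0.33.

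Macrophage markers were present at a low level in the CD8 libraries, and their values stand beside those of Ifngr2. Their 7 genes summed to 369 after SBRT, 257 after IL-12 and 201 after the combination, against 287 in unirradiated CD8, and none was at 0. The sum over all CD8 libraries was 1.46% of that in IM and 1.23% of that in TAM, whereas Ifngr2 in CD8 stood at 7.91% of its IM level and 7.47% of its TAM level. In the authors' deposited tables the median log2 fold change of these markers in CD8 was 0.22 after SBRT, -0.17 after IL-12 and -0.49 after the combination, with 0 of 7 called each time. Without adjustment, 6 of the 7 had a p below 0.05 after the combination, 0 after IL-12 and 1 after SBRT. The 5 monocyte markers had a CD8 median of 0.13 after the combination in the deposited table, also with none called. Of 12 dissociation stress genes, 9 had an unadjusted p below 0.05 in CD8 after the combination and 0 after SBRT or IL-12. Their median after the combination was -0.32 in the deposited table, and 1 was called, Ier2, lower (-0.36, adjusted p = 0.0439). The fibroblast marker Col1a2 was called lower in the same comparison of the deposited table (-0.76, adjusted p = 0.0223). The part of these cells and stress genes in the Ifngr2 and Ifng values of CD8 was not tested.

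Jak1, the kinase on the IFNGR1 chain and on many other cytokine receptors, lies on chr4:101152367-101265282 (minus strand). It passed in none of the 9 comparisons. In CD8 its level was 668 after SBRT, 677 after IL-12 and 644 after the combination, against 839.6 in unirradiated tumours. The authors' deposited tables gave CD8 log2 fold changes of -0.33 ± 0.15, -0.31 ± 0.15 and -0.38 ± 0.15, with adjusted p of 0.368, 0.289 and 0.0933. The 3 treated groups lay close together below the unirradiated one, and since they share its libraries they are not 3 independent observations. In IM and TAM the deposited log2 fold changes of Jak1 lay between -0.24 and 0.02. Raver2 overlaps Jak1 on the other strand and was called in none of the 9 comparisons; its mean level before scaling was 89.6 in IM, 33.5 in TAM and 192 in CD8, against 12321, 9263 and 32452 for Jak1.

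Irf1, the transcription factor, lies on chr11:53770014-53778374 (plus strand). Of its 2 RefSeq promoters, the first is shown because it carries a GAS element, the form through which interferon gamma is known to act on promoters. The second promoter (chr11:53770223-53770472, plus strand) held no match to TTCNNNGAA. In the first, capitals mark the single match to TTCNNNGAA, 90 to 82 bases before the transcription start (RefSeq, GRCm38.p6, chr11:53769764-53770013, plus strand, 5′ to 3′).

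Irf1 promoter: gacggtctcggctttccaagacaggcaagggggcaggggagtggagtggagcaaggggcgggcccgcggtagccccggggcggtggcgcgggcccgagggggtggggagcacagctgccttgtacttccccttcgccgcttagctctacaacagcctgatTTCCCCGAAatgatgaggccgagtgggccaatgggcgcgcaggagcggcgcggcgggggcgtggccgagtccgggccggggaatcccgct

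Irf1 was not called in any comparison. Its TAM level was 1696.5 after SBRT, 1907 after IL-12 and 1959.9 after the combination, against 1375 in unirradiated tumours. All 3 treated TAM groups were above the unirradiated one. The authors' deposited tables gave TAM log2 fold changes of 0.30 ± 0.20, 0.47 ± 0.19 and 0.51 ± 0.20, with adjusted p of 0.718, 0.379 and 0.140. In IM the deposited values were 0.02, 0.10 and 0.25, and in CD8 they lay between -0.07 and 0.09. The library kit named in the labels does not mark strand, and Gm17334 overlaps Irf1 on the other strand, so reads of Irf1 and Gm17334 cannot be told apart where they overlap. The mean level of Gm17334 in TAM was 357 before scaling, against 84137 for Irf1. Gm17334 itself had a deposited log2 fold change of 1.02 in TAM after the combination (adjusted p = 0.000317).

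Socs1, which binds and inhibits JAK kinases, lies on chr16:10782240-10785536 (minus strand). It had the most calls of the 7 genes, higher in all 6 myeloid comparisons. Its promoter is shown for the interferon-type element close to the start. Capitals mark 2 overlapping matches to GAAA, any 2 bases and GAAA again, the repeated core of the ISRE bound by IRF proteins, at 83 to 74 and 77 to 68 bases before the start (RefSeq, GRCm38.p6, chr16:10785537-10785786, minus strand, 5′ to 3′).

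Socs1 promoter: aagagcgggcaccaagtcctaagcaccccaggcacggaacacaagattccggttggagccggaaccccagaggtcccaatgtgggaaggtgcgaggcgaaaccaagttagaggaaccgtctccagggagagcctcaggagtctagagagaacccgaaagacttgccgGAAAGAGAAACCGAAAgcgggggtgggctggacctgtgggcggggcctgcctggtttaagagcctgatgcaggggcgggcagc

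Among 32851 RefSeq promoters cut to the same 250 bases, 7.02% held TTCNNNGAA and 2.98% held the ISRE core on either strand. The T-box letters AGGTGTGA, searched because T-bet drives Ifng, were in 1.12% of promoters and in none of the 7 genes'. Ifng had 1 GAS match, 249 to 241 bases before its start, and Ifngr1, Ifngr2 and Jak1 had no match to any of the 3 motifs in this window. Socs3 also had 1 GAS match, but its RefSeq window lies inside the gene's interval given here, so that match is not placed relative to the start. The GAS match of Irf1 and the ISRE matches of Socs1 do not overlap another motif searched. A match describes letters only, and binding was not measured.

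In IM, Socs1 stood at 139 after SBRT, 129 after IL-12 and 192 after the combination, against 89.5 in unirradiated tumours. Both single treatments raised it by a similar amount and the combination group was the highest. The authors' deposited tables gave IM log2 fold changes of 0.63 ± 0.15 (adjusted p = 0.0106), 0.53 ± 0.15 (0.0197) and 1.10 ± 0.15 (5.91e-11), the last a 2.15-fold increase. In TAM, Socs1 stood at 188 after SBRT, 187 after IL-12 and 225 after the combination, against 121 in unirradiated tumours. The deposited tables gave TAM log2 fold changes of 0.63 ± 0.18 (adjusted p = 0.0345), 0.63 ± 0.17 (0.0284) and 0.89 ± 0.19 (0.000204). In CD8 it stood at 82.1 after SBRT, 93.8 after IL-12 and 96.7 after the combination, against 86.3 in unirradiated tumours. No CD8 value passed in the deposited tables, where the log2 fold changes lay between -0.07 and 0.16 and their 95% intervals within -0.32 to 0.41.

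The weaker Socs1 calls sat near the threshold. In TAM after SBRT the call was lost at an adjusted p of 0.0607 when every gene with a p-value entered the adjustment, within a range of 0.0287 to 0.0607 over the alternatives. In IM after IL-12 it was lost at 0.0694 with rescaled Wald statistics, within 0.0165 to 0.0694. In IM the Socs1 values moved beside monocyte markers of both directions, named with Ifngr1 above, and beside the macrophage markers C1qa (0.60) and C1qb (0.71), both called higher, and Mrc1 (-0.99), called lower, after the combination in the authors' deposited table. In TAM the monocyte markers Plac8 (0.98, 1.40 and 1.34) and F13a1 (-0.64, -0.62 and -0.98) were called in opposite directions after SBRT, IL-12 and the combination in the deposited tables. After the combination 6 of 7 macrophage markers were negative in TAM, with a median of -0.21, and Mrc1 was called lower (-0.78, adjusted p = 0.00290) in the deposited table. The fibroblast markers Col1a1 (-1.09) and Dcn (-0.90) were also called lower there, as was Col1a1 after SBRT (-1.47). The part of all these markers in the Socs1 values was not tested.

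Socs3, the feedback inhibitor best known downstream of IL-6 and STAT3, lies on chr11:117966079-117970047 (minus strand). It passed in none of the 9 comparisons, with log2 fold changes between -0.31 and 0.12 and a lowest adjusted p of 0.552 in the authors' deposited tables. Its IM level was 1739 after SBRT, 1552 after IL-12 and 1568 after the combination, against 1695 in unirradiated tumours. The other 6 genes of the SOCS family, Cish among them, gave 1 call after IL-12 and 1 after the combination, both in IM and both Socs5, which was lower. Of all genes tested in IM, 3.24% were called after IL-12 and 6.72% after the combination. The authors' deposited tables gave Socs5 log2 fold changes in IM of -0.60 (adjusted p = 0.0447) and -0.80 (adjusted p = 0.000959). No other SOCS gene was therefore called higher in these tables. In TAM after SBRT 5 of the 6 were positive in the authors' deposited table, Cish highest at 0.63 ± 0.26 (adjusted p = 0.261). Socs1 and Cish were not tested against each other.

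The response to the combination was compared between populations by subtracting log2 fold changes, each rebuilt as the Wald statistic times a standard error shared over the population's tables. A normal test and a Benjamini-Hochberg adjustment over all genes were used. In IM minus CD8, 2 of the 7 genes differed, beside 1.89% of all genes. Socs1 rose more in IM by 0.94 ± 0.20 (adjusted p = 0.000424), and Ifngr2 differed by 1.10 ± 0.28 (adjusted p = 0.00659), with a log2 fold change near 0 in IM and a negative one in CD8. In TAM minus CD8, 2 of 7 differed, beside 2.43% of all genes, again Ifngr2 by 1.24 ± 0.29 (adjusted p = 0.00255) and Socs1 by 0.73 ± 0.22 (adjusted p = 0.0481). The Socs1 difference between TAM and CD8 lost its call, at an adjusted p of 0.0610, when each table was centred on its median.

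In IM minus TAM, 0 of 7 differed, beside 0.917% of all genes; only Ifng, at -1.02 ± 0.38 with an adjusted p of 0.258, had an unadjusted p below 0.05, of 0.00691. For Ifngr1 the difference IM minus CD8 after the combination was -0.61 ± 0.19, with an adjusted p of 0.0737 that became 0.0411 when only genes with a mean level of at least 50 were tested. Ifng in TAM and in CD8 did not differ detectably in its response, by 0.42 with a 95% interval of -0.29 to 1.14. After SBRT alone Socs1 differed by 0.70 between IM and CD8 and by 0.71 between TAM and CD8, with adjusted p of 0.241 and 0.150, so neither passed. After SBRT 0 of the 7 genes passed by adjusted p in any pair. The share of all genes passing was 0.263% (IM minus TAM), 0.02% (IM minus CD8) and 0.643% (TAM minus CD8). After IL-12 it was also 0 of 7, beside 0.0598%, 0.466% and 0.195% for the same pairs. Without adjustment, 4 of 21 values after SBRT and 7 of 21 after IL-12 had a p below 0.05. These unadjusted counts have no share of all genes beside them and cannot be set against the shares above.

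**Figure D4:**
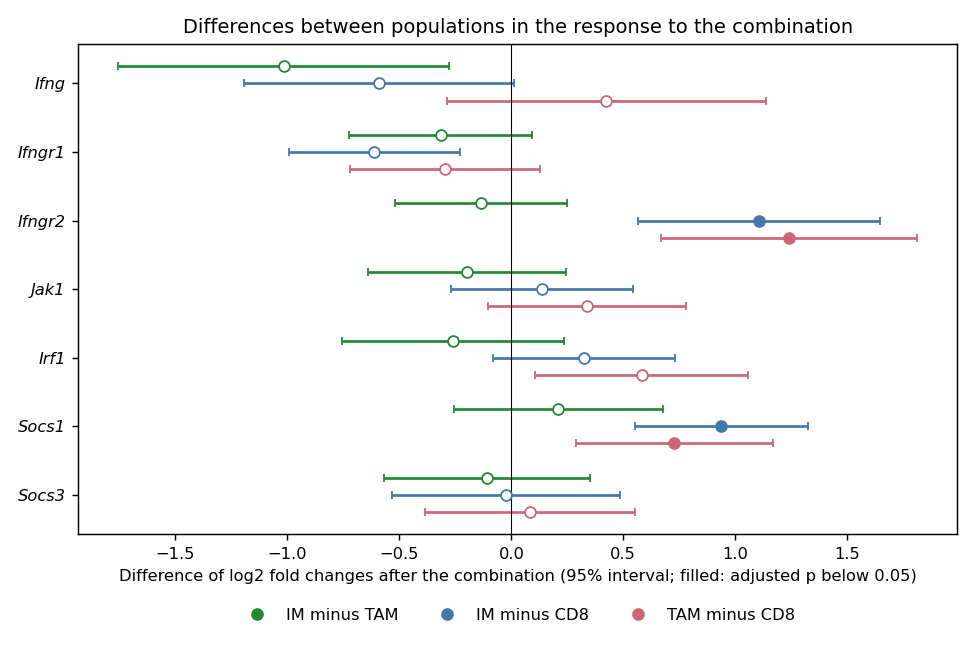
Difference between populations in the log2 fold change after the combination over unirradiated tumours, for each gene. Points are differences and bars 95% intervals; filled points have an adjusted p below 0.05, and these are Ifngr2 and Socs1 in IM minus CD8 and in TAM minus CD8.

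Treatments were then compared within each population. The shared unirradiated libraries cancel in the difference between 2 treatments and stay in only for the departure from the sum of both single effects. By adjusted p no gene of the 7 passed in any of these 12 contrasts. Without adjustment 5 of the 84 values had a p below 0.05, a count with no share of all genes beside it. The test still counted the variance of the shared libraries in every effect, which makes it conservative. The shares of all genes that follow are by adjusted p. All genes were called at 0.204% in IM for the combination minus SBRT, 0% for the combination minus IL-12, 0.0244% for IL-12 minus SBRT and 0.00305% for the departure from the sum of both. The same shares were 0.00309%, 0.0741%, 0.0896% and 0.0124% in TAM and 0.0755%, 0.00302%, 0.0211% and 0.00302% in CD8. The Ifng contrasts in TAM came nearest. The combination exceeded SBRT by 1.52 ± 0.42 (unadjusted p = 0.000333, adjusted p = 1.0) and exceeded IL-12 by 1.41 ± 0.42 (unadjusted p = 0.000892, adjusted p = 0.671). With the variance of the unirradiated libraries removed, the adjusted p became 0.00251 and 0.000199, beside 0.13% and 0.652% of all genes called. Ifng in TAM after the combination exceeded the sum of the single effects by 1.70 ± 0.52, with an adjusted p of 1.0. With the variance of the unirradiated libraries counted only once, the adjusted p was 0.0566. Each TAM group in these contrasts had only 2 or 3 libraries.

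Socs1 in IM was higher after the combination than after IL-12 by 0.57 ± 0.21 and than after SBRT by 0.47 ± 0.21, with unadjusted p of 0.00702 and 0.0269 and adjusted p of 1.0 each. Its departure from the sum of the single effects was -0.06, with a 95% interval of -0.57 to 0.46, so IM values near additivity and departures up to that size cannot be told apart. For Ifngr1 in IM the combination differed from IL-12 by -0.02, with an interval of -0.39 to 0.35, and from SBRT by -0.37, with an interval of -0.74 to 0.00. For Ifngr2 in CD8 the combination differed from IL-12 by -0.43 and from SBRT by -0.64, with intervals that reached above 0.

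Other genes of the pathway were described from lists chosen with earlier results of these data known. The shares of all genes called stand beside every list count below. After SBRT, IL-12 and the combination they were 0.519%, 3.24% and 6.72% in IM. In the same order they were 2.08%, 0.935% and 4.21% in TAM, and 0.471%, 2.52% and 7.47% in CD8. Of 12 interferon gamma targets, the authors' deposited tables called 4 higher after SBRT, 7 after IL-12 and 8 after the combination in IM, with medians of 0.33, 0.46 and 0.59. In TAM they called 0, 3 and 5 higher, with medians of 0.24, 0.51 and 0.48. In CD8 they called 0 of 12 after each treatment, with medians of 0.20, 0.16 and 0.17, and 2, 5 and 2 targets had an unadjusted p below 0.05. Beside the low CD8 shares of all genes, 0 of 12 does not show a lack of response. No target was called lower. After the combination in IM the deposited table gave 2.16 for Nos2, the inducible nitric oxide synthase, 1.83 for Iigp1, an immunity-related GTPase, 1.31 for Cd274, which encodes the checkpoint ligand PD-L1, and 0.79 for Tap1, a peptide transporter. In TAM it gave 1.30 for Nos2 and 0.82 for Cd274, both called. In TAM after SBRT, where none of the 12 targets passed and 4 had an unadjusted p below 0.05, Socs1 was called.

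In a list of 12 signal transducers and phosphatases, Stat2, which acts in type I interferon signalling, was called higher in IM after IL-12 (0.44) and in TAM after SBRT, IL-12 and the combination (0.51, 0.60 and 0.64) in the authors' deposited tables. The deposited tables called none of the 12 in CD8 but Ptpn6, the phosphatase SHP-1, which was lower after the combination (-0.49). Jak2, the kinase on the IFNGR2 chain, was called in none of the 9 comparisons. Of 8 other IRF genes, Irf7 was called higher in IM and TAM after IL-12 and after the combination, between 0.44 and 0.89, and Irf8 in TAM after the combination (0.53), in the deposited tables; none was called in CD8.

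Of 9 genes that act upstream of Ifng, Il12rb1, a chain of the IL-12 receptor, rose in IM by 0.93 after SBRT, 1.33 after IL-12 and 2.03 after the combination in the authors' deposited tables. In TAM the deposited tables called Il12rb1 after IL-12 (0.78) and the combination (0.80), and in CD8 after the combination (0.71). Stat4, the IL-12 signal transducer, fell in IM, with -0.79, -1.03 and -1.50, and in CD8 after IL-12 and the combination, with -0.34 and -0.35, in the same tables. Hlx, a homeobox factor of the same list, was called lower in IM after the combination (-0.48, adjusted p = 0.0310) in the deposited table. Tbx21 and Eomes, T-box factors that drive Ifng and are singled out here after their values were seen, were not called in CD8 after the combination, where the deposited table gave 0.14 and -0.13. Of 10 other receptor chains that use JAK1, Il7r, the IL-7 receptor alpha chain, was called lower in CD8 after each treatment, at -0.86, -0.90 and -0.71 in the deposited tables. Il6st and Il6ra, the chains of the IL-6 receptor, were also called lower in CD8 after the combination (-0.60 and -0.64 in the deposited table). In IM after the combination, Il2rg, the gamma chain shared by several interleukin receptors, was called higher (0.31, adjusted p = 0.0394) and Il6ra lower (-0.44, adjusted p = 0.0106) in the deposited table.

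**Figure D5:**
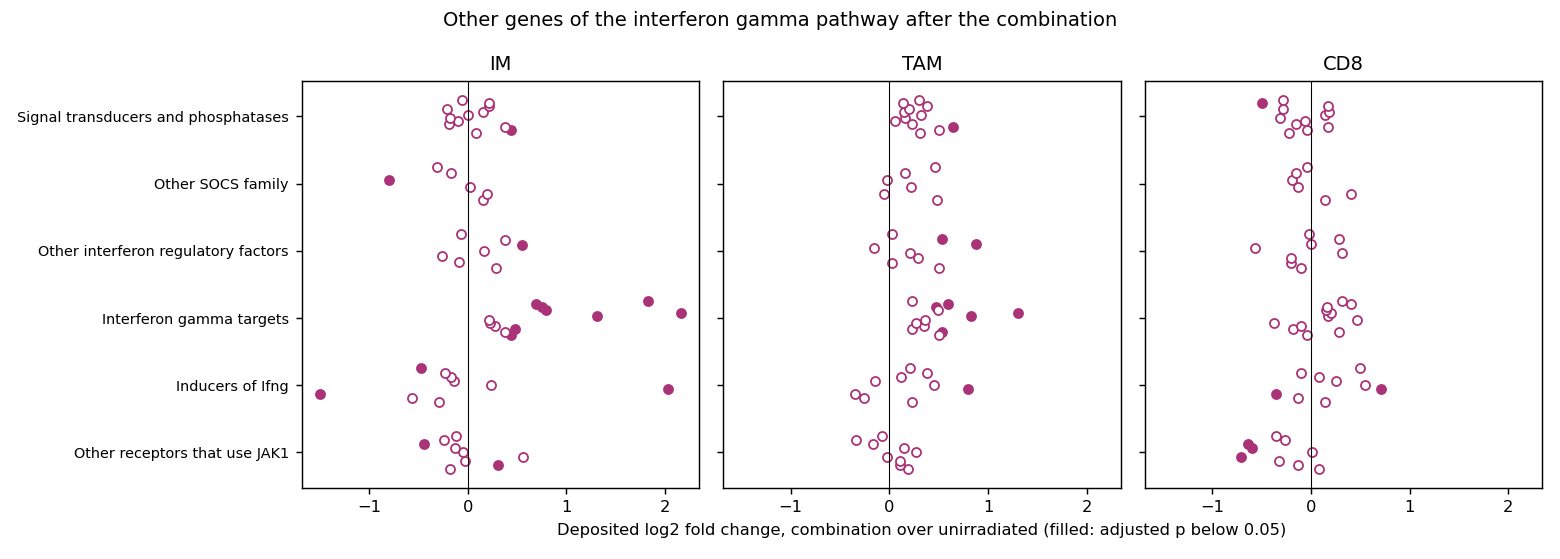
Log2 fold change after the combination over unirradiated tumours, in the authors' deposited tables, for single genes of 6 lists in IM, TAM and CD8; filled points have an adjusted p below 0.05. The interferon gamma targets lie above 0 for all 12 genes in IM and TAM, with 8 and 5 filled, and on both sides of 0 in CD8 with none filled. Of all genes tested, 6.72% were called in IM, 4.21% in TAM and 7.47% in CD8.

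The genes whose 9 deposited log2 fold changes were closest to each of the 7 genes were found by Euclidean distance among 9745 candidates. Socs1 lay closest to Cd274 (distance 0.447), then Gbp7 (0.512) and Fbxw17 (0.529), where the median candidate lay 1.98 away. Ifng lay closest to Gzmb, a cytotoxic granule protease gene, at 0.980 with a median candidate at 1.84. Ifngr1 lay closest to Sorl1 (0.307), Ifngr2 to Nckap5l (0.390) and Irf1 to Zbtb7b (0.245). The 3 comparisons of a population share control libraries, so these distances describe the tables and carry no test.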

How the data were processed

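RNA of sorted cells was sequenced with the Illumina TruSeq V2 kit, per the labels. The submitters' processing notes name STAR 2.6.0c, Trimmomatic 0.36 and FastQC 0.11.8, besides Salmon, featureCounts and Subread, and the build GRCm38. Per the file headers, each of the 9 tables holds columns in the form DESeq2 writes. The authors deposited a mean normalised level (a signal, after scaling of libraries), a log2 fold change, a Wald score, a p-value and an adjusted p-value for each gene. No counts per library were used here, so depth is unknown and its precision enters only through standard errors implied by the authors' tables.

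Standard errors were taken as fold change over Wald score. Whether the fold changes were shrunken towards 0 is not given in the sources used here. These implied errors were smaller for genes with a level below 1 (medians of 0.0476 to 0.0731 over the tables). Genes at 50 or more had medians of 0.166 to 0.210. Log2 fold changes below a level of 1 reached at most 0.11 in size. For Osmr, of the JAK1 receptor list, fold change (5.48e-06) and Wald score had opposite signs in CD8 after the combination. Its implied error was -0.00154, so this ratio is not always a standard error. Errors, intervals, differences and implied group levels were not corrected for any shrinkage, so they are approximate. Group levels were solved so that their library-weighted mean gave the deposited level. Exon lengths came from GENCODE M21 and promoters from RefSeq. Differences used the Wald score times the median standard error of a population's tables. Their normal p-values were adjusted by the Benjamini-Hochberg method over every gene that had one. Simulated data tested this step only within populations, for the combination minus SBRT and the departure from the sum. Differences between populations were not simulated. In TAM the step found 48% of simulated differences for the combination minus SBRT (mean 1.00). It found 18.5% of them for the departure from the sum (mean 1.01). Python 3.11.15, numpy 2.4.6, scipy 1.17.1 and pandas 2.3.3 were used. The 7 genes were set by name; the other lists, tests and the rule for named genes (all 7, up to 4 called genes of a list per comparison with the smallest adjusted p, and the 3 nearest patterns by distance) were chosen with earlier results of these data known. Alternatives were the threshold, the adjustment over every gene, rescaled Wald scores, the standard errors, control variance, a level minimum of 50 and centring. One gene of the lists is counted with them and is not reported here by itself.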

Additional observations from a re-analysis of the deposited data

Results flagged for a closer look

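The response of 2 genes to the combination differed between cell populations by a test of the difference itself. Ifngr2 differed by 1.10 on the log2 scale in IM minus CD8 (adjusted p = 0.00659) and by 1.24 in TAM minus CD8 (adjusted p = 0.00255), being lower in treated CD8 cells and close to its unirradiated level in both myeloid populations. Socs1 differed by 0.94 in IM minus CD8 (adjusted p = 0.000424) and by 0.73 in TAM minus CD8 (adjusted p = 0.0481), being higher in the treated myeloid cells. With all tested genes in the adjustment, the other 5 genes passed no such test between populations after SBRT, IL-12 or the combination. Ifngr1 in IM minus CD8 after the combination (-0.61, adjusted p = 0.0737) passed, at 0.0411, when only genes with a level of at least 50 were tested.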

How the results depend on the processing

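Of 315 alternative values for the deposited effects of the 7 genes, 303 kept their side of the threshold, 10 lost a call and 2 gained one. These alternatives left the deposited fold changes as they were, so the direction could not change. At a threshold of 0.01 the called genes were 0 for IM SBRT, TAM SBRT, TAM IL-12 and CD8 IL-12 (1 each at 0.05) and 1 for IM IL-12 (2 at 0.05). At 0.1 CD8 IL-12 had 2. Adjusting over every gene with a p-value left 0 for TAM SBRT and 0 for CD8 IL-12. Rescaled Wald statistics left 1 for IM IL-12, 0 for CD8 IL-12 and 1 for CD8 combination (2 at first). Removing the variance of the unirradiated libraries gave 1 for TAM combination minus SBRT and 1 for combination minus IL-12 (0 before), Ifng in both. Centring left 1 for TAM minus CD8 after the combination (2 before). Of 441 alternative values for differences, 435 kept their direction and side of the threshold, 3 gained a call, 1 lost one and 2 changed direction. Both changes of direction were Socs1. They were TAM IL-12 minus SBRT (-0.003 with each table's own standard error) and IM minus TAM after SBRT (0.006 after centring). Ifngr1 in IM minus CD8 after the combination gained a call, at 0.0411, with a level of at least 50. Beyond what each alternative does by construction, the cause was not tested.

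No paired analysis was possible because the tables hold no value per library, and leaving out a replicate could not be run for the same reason. The TAM groups other than IL-12 had 2 libraries each. All implied levels, errors and intervals, including those of low genes such as Ifng in TAM, rest on fold changes whose shrinkage is not stated. A missed threshold does not show that a gene was unchanged.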

Other observations

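Genes within 100 kb of one of the 7 genes and with a mean level of at least 10 were looked up, and those named here were chosen after their values were seen. Prm1, 10790 bases from Socs1 on the same strand and known for packing sperm DNA, was called higher in all 6 myeloid comparisons of the authors' deposited tables. Its log2 fold changes there were 0.73, 1.18 and 1.80 in IM and 1.02, 0.87 and 1.14 in TAM after SBRT, IL-12 and the combination, at mean levels of 233 in IM, 195 in TAM and 5.89 in CD8, against 6575 for Socs1 in IM. Tnp2, 2400 bases from Socs1 on the same strand, was called higher in IM after the combination, at 1.18 in the authors' deposited table. Rmi2, 49523 bases away on the opposite strand, was called higher in IM after each treatment (0.99, 1.19 and 1.28) and in CD8 after the combination (0.66) in the same deposited tables.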
